A study of Mus musculus with 8 samples.

Results

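The small RNA recovered by immunoprecipitation (IP) with an antibody to MVH was compared with that of the pellet it was taken from, in adult mouse testis. MVH is the mouse vasa homolog DDX4, an RNA helicase of the chromatoid body, the cytoplasmic RNA granule of round spermatids. The features compared were those that the authors' MVH IP table and pellet table share by symbol and locus. There were 2244 of them, of 8959 features in the MVH IP table and 3005 in the pellet table, or 9720 different features in all. A level of at least 1 FPKM (fragments scaled to the length of the feature and the size of the library) in either column left 1822 for comparison.

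Cells of the seminiferous tubules from C57BL/6 mice of at least 6 weeks were fixed with formaldehyde and broken by sonication, and the lysate was centrifuged. A first pellet went through another sonication and a filter, and the second pellet was incubated with beads carrying MVH antibody or, as control, antibody to ACR (acrosin, the protease of the acrosome). RNA of 19 to 33 nt was then cut from a gel. The protocol in the labels puts the IP on the second pellet, whereas the sample labels name the lysate as its source. MVH IP had 2 libraries, deposited as 1 column of values. The pellet table likewise has 1 pellet column, which the labels tie to both the first and the second pellet, so it stands for the authors' value of that column, without an n. Each group therefore had 1 value per feature: no test was possible, differences have no replicate check, and they compare these libraries, not the conditions. The number of mice behind each library was not given in the sources used here.

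A chromatoid body gathers PIWI proteins with piRNAs, Argonaute proteins with microRNAs, and messenger RNA of the haploid cell. piRNAs of adult testis are cut from long single-stranded transcripts of genomic clusters and are a few bases longer than microRNAs. microRNAs act through their seed, the bases 2 to 8 of the mature strand. Small nucleolar RNAs guide chemical modification of ribosomal RNA in the nucleolus, and small nuclear RNAs work in splicing. Small RNA reads on protein-coding genes can come from piRNAs or from broken messenger RNA, and are no measure of the messenger RNA itself.

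The 2 tables were normalized separately, so levels were read relative to the piRNA clusters. The clusters' median log2 level was 8.92 in the MVH IP and 7.33 in the pellet, and the gap of 1.59 was taken off each difference. All differences below are centred log2 differences, MVH IP minus pellet, on the log2(FPKM + 1) scale unless another is named, and a feature was counted as higher or lower when it was at least 2-fold away. By that count 14.4% of all compared features were higher in the MVH IP and 27.8% lower, and among the 1494 with a level above 0 on each side the shares were 16.3% and 13.4%. The added 1 FPKM pulls low features down, since the MVH IP values are on a larger scale. Over those 1494 features, 397 were higher and 162 lower without it, against 244 and 200 with it, so differences without a pseudocount stand beside those of low genes. The choice of centre weighs too: over all 1822 features 262 were higher and 507 lower, but 1134 and 330 with no centring. Centring each column on its own median over all features adds 0.42 to each difference and gave 370 and 410. That centre is not the median of the differences, which was -0.22 over all features with the cluster centring. Pseudocounts of 0.1 and 10 FPKM gave 393 and 473, and 129 and 858. SEs are those of the pellet to lysate log2 ratio that the authors' test statistic implies, and so describe counting in the pellet and lysate only. The MVH IP column carries no error. Of the compared features, 307 were listed at 0 in the MVH IP. The filter leaves each of these at least 1 FPKM in the pellet, so with the cluster centring each counts as lower by construction. Genes that every cell uses are among these 307. Whether a 0 is an absence of reads or a failed estimate was not tested, and no fold is given against a 0.

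The microRNAs whose differences are described first are shown here with the seed in capitals, 5′ to 3′, because the members of some seed families lay together while those of others lay apart. Mature sequences are from RefSeq (GRCm38.p6), where 160 of the 188 compared microRNA genes were matched. Members of the let-7 family, all above 0:
let-7f-5p: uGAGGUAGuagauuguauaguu
let-7e-5p: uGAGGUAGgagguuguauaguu
let-7i-5p: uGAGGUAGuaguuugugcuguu
Members of the miR-15, miR-16 and miR-30 families, below 0:
miR-16-5p: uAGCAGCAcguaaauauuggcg
miR-15a-5p: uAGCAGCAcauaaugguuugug
miR-30a-5p: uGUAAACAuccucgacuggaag
The miR-99 and miR-100 seed, whose members lay on both sides of 0:
miR-99a-5p: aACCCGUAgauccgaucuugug
miR-99b-5p: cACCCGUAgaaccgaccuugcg
miR-100-5p: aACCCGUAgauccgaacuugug
Members of the miR-34 and miR-449 family of germ cells, whose Mir34c led both columns:
miR-34a-5p: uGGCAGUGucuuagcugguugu
miR-449a-5p: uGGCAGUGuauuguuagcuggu
The skin and red cell microRNAs on either side of 0:
miR-205-5p: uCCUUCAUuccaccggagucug
miR-451a: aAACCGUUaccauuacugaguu

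Values differed by class of RNA. piRNA clusters kept nearly the same order and spacing in the IP and the pellet. microRNA genes spread around the clusters with more above than below, and small structured RNA genes were mostly listed at 0 in the IP. The microRNA excess was small at high pellet levels: over the 118 genes of at least 2000 FPKM there, 62 lay above 0 and 56 below. microRNA genes held 97.4% of the MVH IP FPKM sum and 93.2% of the pellet's. Small structured RNA genes held 0.318% in the IP against 4.18% in the pellet, and piRNA clusters 1.35% against 1.73%. FPKM weights short features up, so these are not shares of reads.

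**Figure D1:**
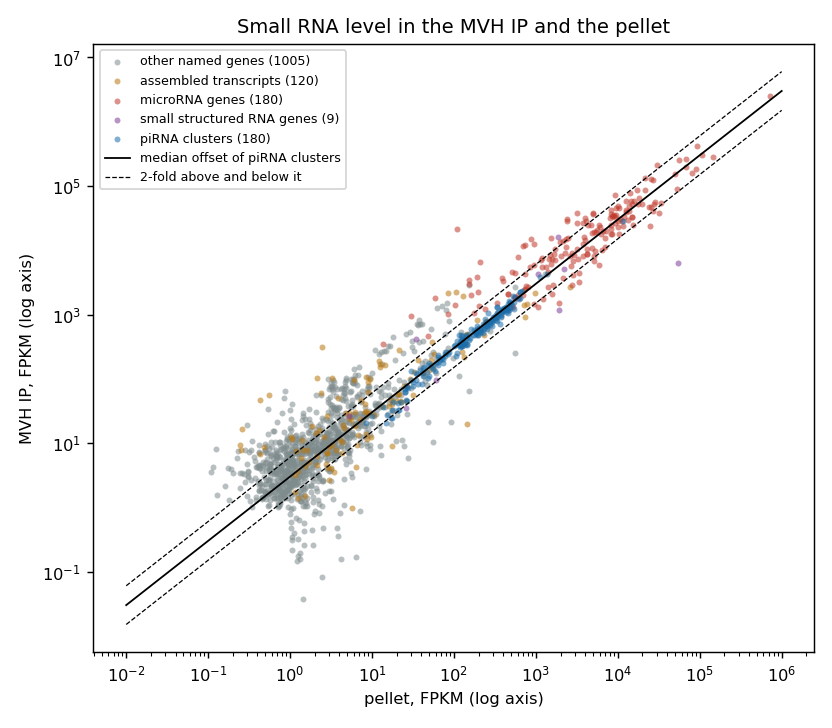
MVH IP level (vertical, FPKM, log axis) against pellet level (horizontal, FPKM, log axis) for the 1494 shared features above 0 in both columns, coloured by class, 1 point per feature. The solid line is the offset between the columns' piRNA cluster medians and the dashed lines are 2-fold to each side; the clusters hug the line, while the named genes of low level scatter widely about it.

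All 180 piRNA clusters of the pellet table were also in the MVH IP table, and 166 of them lay within 0.5 of 0. Their differences ran from -1.17 to 0.50 with an SD of 0.29, 0 were higher and 4 lower. Their median, -0.10, is near 0 by construction, because the clusters set the centring. Across the 180 clusters the log2 levels in the 2 columns had a Pearson r of 0.988. The same r was 0.896 over 180 microRNA genes and 0.799 over 1005 other named genes. Features within a column share a library, so these values are descriptions with no test. The median SE differed as well, at 0.04 for clusters, 0.33 for microRNA genes and 0.55 for other named genes. The part of counting in the r values was not tested.

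The 4 clusters at least 2-fold lower were short and low. piRNA_cluster_14 (mm9, chromosome 3, 20357321 to 20358487) had 20.4 FPKM in the MVH IP and 14.9 in the pellet, a difference of -1.17. piRNA_cluster_163 stood at -1.12, piRNA_cluster_154 at -1.06 and piRNA_cluster_190 at -1.01. At the other end, piRNA_cluster_192 (chromosome 17, 66548405 to 66550177) had 131.6 FPKM in the IP and 30.2 in the pellet, a difference of 0.50. piRNA_cluster_49 (chromosome 6, 85060730 to 85076088) had 1044 FPKM and 263 FPKM, a difference of 0.39. Spread was wider in short clusters: the SD was 0.36 in the 90 shorter clusters, up to 3573 bp, and 0.17 in the 90 longer ones. By pellet level the SD was 0.42 under 50 FPKM, 0.20 from 50 to under 500 FPKM and 0.21 at 500 FPKM or more. The 39 clusters under 50 FPKM in the pellet had a median of -0.30 and the 13 of at least 500 FPKM a median of 0.08. The SE was 0.23 for piRNA_cluster_14 and 0.04 for piRNA_cluster_49, and the part of depth in these differences was not tested.

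**Figure D2:**
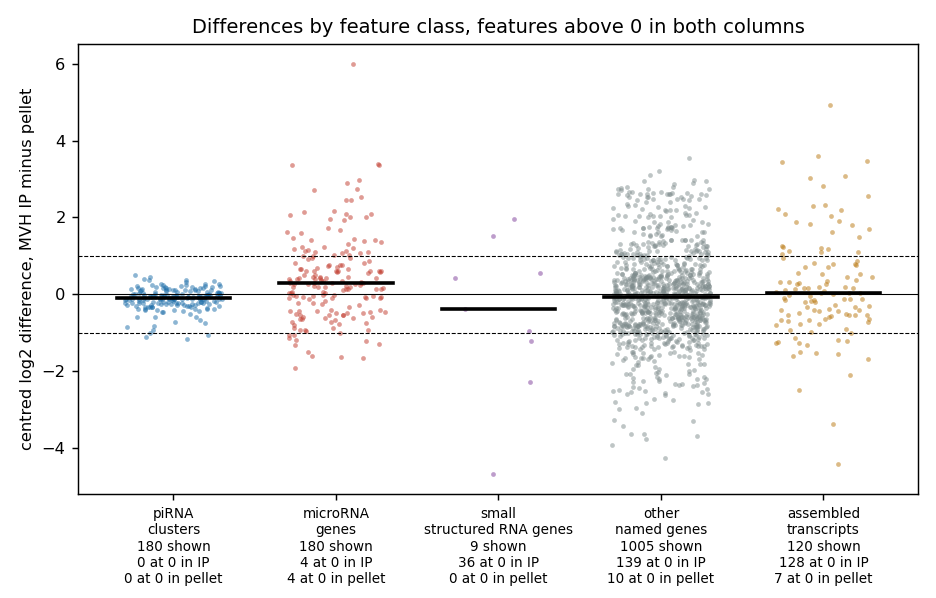
Centred log2 difference, MVH IP minus pellet, for each shared feature above 0 in both columns, by class; black bars are medians and dashed lines mark 2-fold. The labels give how many features are drawn and how many were listed at 0 in either column: 36 of 45 structured RNA genes were at 0 in the IP, against 0 of 180 clusters.

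microRNA genes had a median of 0.30 (quartiles -0.43 and 1.02) over 188 compared genes, with 48 higher and 16 lower. These were 25.5% and 8.51% of the class, against 14.4% and 27.8% of all features. The excess moves with which genes the MVH IP table lists. Its lowest microRNA value above 0 was 344 FPKM, and it shared 118 of the 119 pellet microRNA genes at or above 2000 FPKM, 41 of 63 between 500 and 2000 FPKM, and 31 of 181 below 500 FPKM. Over the 118 shared genes at or above 2000 FPKM in the pellet the median was 0.05, with 15 higher and 8 lower. Over the 126 with an SE of at most 0.5 the median was 0.04, with 12 higher and 12 lower. Among genes above 0 in both columns the widest difference, that of Mir193 (21084 FPKM in the IP, 110 FPKM in the pellet, 5.98), had an SE of 2.61 from its pellet and lysate reads alone.

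The miR-34 and miR-449 family, microRNAs of meiotic and haploid male germ cells, lay close to the clusters, and one of them led both columns. Mir34c (chromosome 9, 50911138 to 50911215) had 2472030 FPKM in the MVH IP and 719747 FPKM in the pellet, the highest value of each, with a difference of 0.19 (SE 0.03). Its neighbour Mir34b had 423339 and 93006 FPKM, a difference of 0.60. Mir449a, which shares the seed GGCAGUG, had 195906 and 67816 FPKM, a difference of -0.06. Mir34a, the member known best from somatic cells and p53, had 11237 and 6889 FPKM and lay lowest at -0.89 (SE 0.17). None of the 5 members was 2-fold away. In the ACR IP, Mir34c had 78133 FPKM and Mir34b 5770 FPKM, in a table normalized separately.

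All 12 members of the let-7 family, a widely expressed family tied to differentiation, lay above 0, with a median of 0.58. Of these 4 were higher, or 33.3%, against 25.5% of all microRNA genes. Mirlet7f-2 (chromosome X, bundle 148237824 to 148369961) had 36901 FPKM in the MVH IP and 4984 FPKM in the pellet, 2.46-fold higher after centring (difference 1.30, SE 0.27). Mirlet7f-1 gave 1.22 and Mirlet7e 1.03. Mir98, which carries the same GAGGUAG seed, gave 2.18 with an SE of 1.45, from 1425 and 104 FPKM. Mirlet7i, whose sequence departs from let-7f outside the seed, lay at 0.04 (20292 and 6564 FPKM). Several let-7 genes yield the same or nearly the same mature strand, so their reads may be split between loci, and the members are not independent.

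The miR-15 and miR-16 family and the miR-30 family lay mostly below the clusters, by less than 2-fold. Mir15b had 281351 and 143444 FPKM, a difference of -0.62 (SE 0.08). Mir16-1 had 187010 and 90480 FPKM, a difference of -0.54 (SE 0.05), and Mir15a, which lies in the same transcript unit, 54273 and 34092 FPKM, a difference of -0.92 (SE 0.10). By seed, the 7 genes with AGCAGCA had a median of -0.54 and ranged from -0.92 to 0.13. All 6 miR-30 genes lay between -0.88 and -0.34, with a median of -0.50. Mir30a was the lowest, with 25030 FPKM in the IP and 15238 FPKM in the pellet (SE 0.20). The miR-17-92 microRNAs with their paralogs, a group of proliferating cells, had a median of -0.32 over 10 genes, with 0 higher and 0 lower. The side of 0 of these groups depends on the centre: centred on all features the medians were 0.03 for miR-15 and miR-16, 0.10 for miR-17-92 and -0.07 for miR-30, with 1 of the 6 miR-30 genes above 0. Under that centre the let-7 median was 1.01, with all 12 members above 0. A centre adds 1 constant to every difference, so the order of medians holds. With the cluster centring all features had a median of -0.22, above the -0.40 of miR-15 and miR-16, the -0.32 of miR-17-92 and the -0.50 of miR-30. The 3 genes with the seed GCAGCAU, Mir103-1, Mir103-2 and Mir107, lay between -0.45 and -0.43.

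The miR-99 and miR-100 seed was split. Mir100 (chromosome 9, 41339507 to 41339587) had 32126 FPKM in the MVH IP and 3988 FPKM in the pellet, a difference of 1.42 (SE 0.33). Mir99a had 40443 and 26761 FPKM, a difference of -0.996 (SE 0.17), and Mir99b 2929 and 2738 FPKM, a difference of -1.49 (SE 0.49). All 3 share bases 2 to 8. Mir10a, of the wider family, gave 2.44 (SE 0.47) from 11492 and 700 FPKM, while Mir10b lay at -0.10. Over the 8 genes of the miR-10, miR-99 and miR-125 list the median was -0.06, or 0.36 when centred on all features, with 2 higher and 1 lower. Other seeds were spread as well: the 3 genes with AUUGCAC ran from -0.96 to 1.42, the 3 with AGUGCAA from -1.92 to 0.81, and the 5 with ACAUUCA from -0.65 to 2.73.

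The testis microRNA cluster of the X chromosome, a fast-evolving group transcribed in male germ cells, had a median of 0.28 over 18 compared genes, with 2 higher and 2 lower. Mir471 (26628 and 3221 FPKM) was at 1.46 and Mir201 (13912 and 2128 FPKM) at 1.12. Mir743 (38384 and 31519 FPKM) was at -1.31 and Mir883a (6764 and 5177 FPKM) at -1.21. Mir741, the highest of the cluster with 155783 and 49704 FPKM, lay at 0.06. Among the tRNA-like entries, Mir720 was at 2.00 (SE 0.57) and Mir1983 at -1.19 (SE 0.29).

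All 19 compared genes of a list of epithelial, liver, muscle and brain microRNAs lay above 0, with a median of 0.76. Of these 9 were higher, or 47.4%, against 25.5% of all microRNA genes. Several entries are gene copies of 1 microRNA with nearly the same value, such as Mir133a-1 and Mir133a-2 (both 2.09) or Mir9-1 and Mir9-2 (both 1.11). The 19 are therefore not independent. The pellet table holds 23 of this list, and the others had no shared row, so the 19 are in part chosen by a high MVH IP value. All 12 let-7 genes of the pellet table were shared. Mir205 (chromosome 1, 195333656 to 195333724), a microRNA of skin and other epithelia, had 214040 FPKM in the MVH IP, 30155 in the pellet, 9099 in the lysate of the pellet table and 8493 in the ACR IP. Its difference was 1.24 (SE 0.36). Mir1-1, of heart and skeletal muscle, had 133640 FPKM in the IP, 21192 in the pellet and 2953 in the lysate, a difference of 1.07 (SE 0.49). Mir133a-2, another muscle microRNA, had 7844, 613 and 428 FPKM in the same order (2.09, SE 0.93). Mir122a, the abundant liver microRNA, had 10488, 1727 and 715 FPKM (1.01, SE 1.39). Of the 19 genes, 6 had a higher pellet than lysate value: these 4 and the muscle genes Mir1-2 and Mir133a-1. The other 13 had a lower one, among them Mir133b of muscle (13.6 and 35.4 FPKM) and Mir203 of skin. The microRNA genes as a class had a median pellet to lysate log2 ratio of -4.44. Mir375 (260361 and 67120 FPKM, 0.36) and Mir184 (255902 and 56220 FPKM, 0.60), both high in testis here, lay nearer the clusters. The miR-200 family, also epithelial, was a separate list, so the list above does not cover all epithelial microRNAs. Of its 5 pellet genes 3 were shared: Mir200c at 2.45 (SE 0.97), Mir141 at 1.17 (SE 0.58) and Mir200a below 0 at -0.29 (SE 0.73).

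microRNAs of blood, vessel wall and the gonadal soma gave no common direction: 9 genes, a median of -0.04 (0.38 when centred on all features), 1 higher and 2 lower. Mir451 (chromosome 11, 77886671 to 77886743), the red cell microRNA, had 23859 FPKM in the MVH IP and 24386 in the pellet, a difference of -1.62 (SE 0.15). Mir140, of cartilage and mesenchyme, had 5859 and 5962 FPKM, also -1.62 (SE 0.34). Mir142, of white blood cells, had 38473 and 4965 FPKM, a difference of 1.36 (SE 0.42). Mir143, of smooth muscle, had 129411 and 25211 FPKM (0.77), and Mir202, of the gonadal soma, 18503 and 4813 FPKM (0.35). Of the microRNAs of the imprinted Meg3 to Mirg locus, 33 were in the pellet table and 3 in the MVH IP table. The one compared, Mir543, had 8880 FPKM in the IP and was listed at 0 in the pellet.

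**Figure D3:**
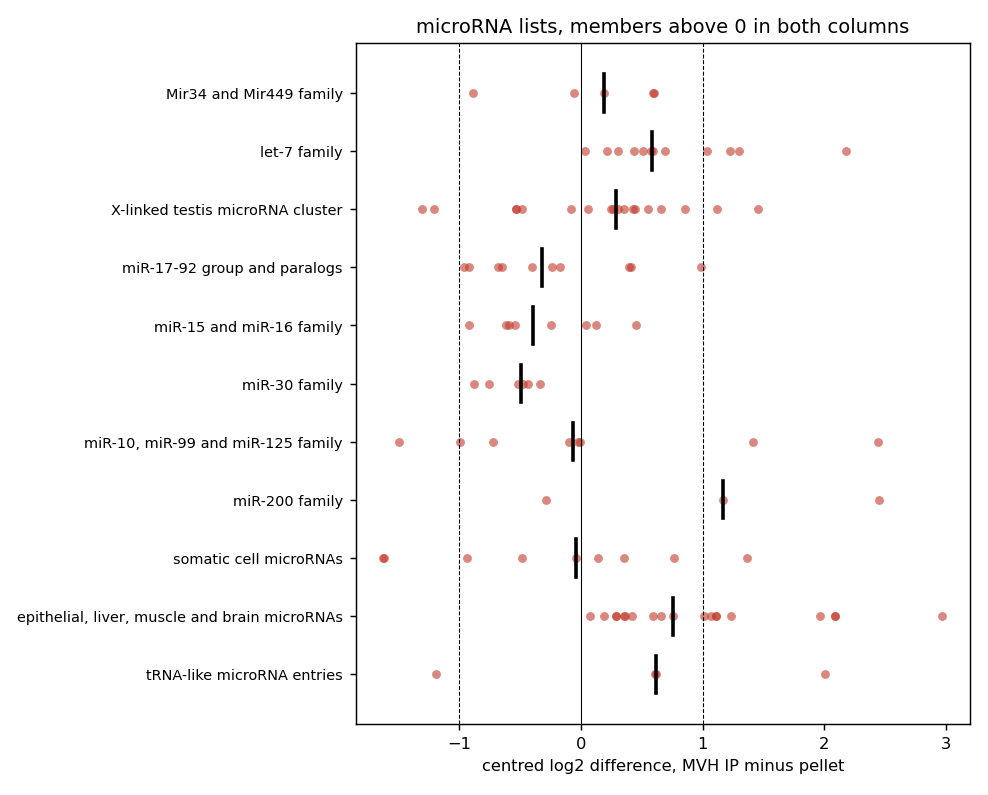
Centred log2 difference, MVH IP minus pellet, for members of 11 microRNA lists above 0 in both columns; each point is 1 gene, black bars are list medians and dashed lines mark 2-fold. All 12 let-7 genes and all 19 genes of the epithelial, liver, muscle and brain list lie right of 0, and all 6 miR-30 genes left of it with this centring (5 of 6 when centred on all features).

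Small structured RNA genes had the largest share of lower genes of the 5 classes, 86.7%, but most of it was set by a 0 in the IP. Of 45 compared, 39 were lower and 2 higher, while of the 9 above 0 in both columns 3 were lower. The other 36 were listed at 0 in the IP and so lower by construction, with pellet values of 2.08 to 12835 FPKM and a median of 315 FPKM. The ACR IP table lists 32 of those 36, and all 32 at 0. A 0 was common in that column: its median was 0 FPKM over 337 named genes above 0 in the MVH IP. Those were the listed genes with an SE of at most 0.5 and a pellet at least 2-fold below the lysate. Snord57, Rnu11 and Rnu12, above 0 in the MVH IP, were also at 0 there, while Snord2 had 2831 FPKM and Rnu1b2 2.56. Among the 33 C/D box small nucleolar RNA genes, which guide ribose methylation, 30 were at 0 in the IP. The highest of these 30 in the pellet were Snord37 with 12835 FPKM, Snord95 with 6279 FPKM and Snord66 with 3306 FPKM. Of the 6 H/ACA box genes, which guide pseudouridylation, 5 were at 0. Snora21, the other one, was at 1.96 with an SE of 1.97.

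Structured RNAs above 0 in both columns spread in both directions. Snord2 (chromosome 16, bundle 23107551 to 23127803) had 6327 FPKM in the MVH IP and 53600 in the pellet, where it was the highest of the class, 25.5-fold lower after centring (difference -4.67, SE 0.13). Rnu12, the U12 RNA of the minor spliceosome, had 1192 and 1928 FPKM, a difference of -2.28 (SE 0.17). Rnu1b2, a U1 gene of the major spliceosome, had 94.2 and 60.0 FPKM, a difference of -0.95 (SE 0.11). Rmrp, the RNA of RNase MRP, gave -1.21 (SE 0.58). Rnu11, another minor spliceosome RNA, had 4274 and 1060 FPKM and lay above 0 at 0.42 (SE 0.40). Snord57 had 16192 and 1881 FPKM, a difference of 1.51 (SE 1.10). Over all 9 such genes the median was -0.38, with 2 higher and 3 lower.

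Among the other named genes, 176 of 1154 were higher and 303 lower, with 139 of the lower ones listed at 0 in the IP. Those were 15.3% and 26.3% of the class, near the 14.4% and 27.8% of all features. Over the 1005 above 0 in both columns the counts were 169 and 164 and the median -0.08. Without the pseudocount that median was 0.37, with 315 higher and 127 lower. The middle of the class therefore has no side that holds on both scales. Single genes below are on the pseudocount scale unless a second value is given.

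Most genes of the protamine, transition protein and sperm tail list were low or listed at 0 in the MVH IP. The list also holds other genes, such as Ldhc, Pgk2, Oaz3, H1fnt and Hils1. Of its 21 compared genes, 18 were lower (85.7%, against 27.8% of all features) and 1 higher. Among the lower ones, 11 were listed at 0 in the IP and so lower by construction. Of the 10 above 0 in both columns, 7 were lower, against 13.4% of all such features. Tnp1 (chromosome 1, 73061648 to 73062473), which encodes a transition protein that replaces histones before protamines, had 30.8 FPKM in the pellet and 224 in the lysate. Tnp2 had 19.2 FPKM in the pellet and Smcp, of the sperm mitochondrial sheath, 14.1 FPKM. All 3 were listed at 0 in the IP, and in the ACR IP as well, where a 0 was common. In these bulk fractions less RNA per cell cannot be told from fewer contributing cells. Akap4, the main anchoring protein of the fibrous sheath, had 0.0819 FPKM in the IP and 2.45 in the pellet, a difference of -3.27 (SE 0.36) and of -6.50 without the pseudocount.

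Protamine genes themselves were above 0 in the IP. Prm1 had 28.3 FPKM in the IP and 26.6 in the pellet, a difference of -1.51 (SE 0.35), and Prm2 27.0 and 20.2 FPKM, a difference of -1.19 (SE 0.28). Ldhc, the testis lactate dehydrogenase, gave -1.36 (15.2 and 12.8 FPKM, SE 0.23). Oaz3, the antizyme of haploid germ cells, was the exception in the list, with 50.8 FPKM in the IP and 4.63 in the pellet, a difference of 1.61 (SE 0.41). Over the 10 members above 0 in both columns the median was -1.26, and -1.23 without the pseudocount, against -0.08 and 0.37 over all such named genes. Centred on all features, 14 of the 21 were lower and 1 higher. House-keeping genes lay similarly: of 8, 6 were lower (75%, against 27.8% of all features) and 0 higher. Centred on all features these counts were 3 and 1. Actb had 0.822 FPKM in the IP and 2.27 in the pellet (-2.44), and Eef1a1, the elongation factor, was listed at 0 in the IP with 3.02 FPKM in the pellet. Of the 7 above 0 in both columns 5 were lower, against 13.4% of all such features. Their median was -1.38, and -1.34 without the pseudocount.

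Genes of the chromatoid body and piRNA pathway lay near the clusters, with a median of -0.11 over 11 genes (0.31 without the pseudocount). Of these 0 were higher and 3 lower, the latter 27.3%, near the 27.8% of all features. Centred on all features the median was 0.31. Eif2c2, which encodes Argonaute 2, had 56.1 FPKM in the IP and 22.3 in the pellet, a difference of -0.30 (SE 0.08). Piwil1, the gene of MIWI, had 7.61 and 2.01 FPKM (-0.08, or 0.32 without the pseudocount), Piwil2, the gene of MILI, 10.2 and 2.43 FPKM (0.11 and 0.46), and Ddx25, a helicase of the granule, 12.6 and 4.93 FPKM (-0.40 and -0.25). The 3 lower genes were Fxr1, an RNA-binding protein gene, at -2.36 (SE 0.81), Hsp90aa1, of the chaperone HSP90, at -2.32 (SE 0.33), and Pabpc1, of poly(A)-binding protein, at -1.13 (SE 0.36). No gene of this list was above 10.2 FPKM in the IP other than Ddx25 and Eif2c2.

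Lists of other cell types and structures were thin or mixed. Spermatocyte genes numbered 6, with a median of -0.59 (-0.37 without the pseudocount), 1 higher and 3 lower. Tex101 had 1.65 and 2.68 FPKM (-2.06) and Hormad2, of the meiotic axis, 7.41 and 0.231 FPKM (1.18, or 3.41 without the pseudocount, SE 1.54). The 3 acrosome genes ranged from -2.10 for Tcp11 to 1.14 for Acrbp. Of the Leydig and Sertoli list only Clu was compared (0.50, SE 0.69), and of the blood and peritubular list no gene was in either table. Malat1, a nuclear long non-coding RNA, had 0.437 and 1.49 FPKM (-2.38, or -3.36 without the pseudocount, SE 0.26), and Neat1, of the paraspeckle, lay at -0.41, or 0.03 without it. Meg3 had 86.6 and 3.17 FPKM (2.80, SE 0.63).

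Ribosomal protein genes split by single genes. Of 25, 6 were higher and 8 lower, 7 of the latter listed at 0 in the IP, and the median was -0.05, or 0.37 when centred on all features. Over the 17 above 0 in both columns the median was 0.40, or 0.91 without the pseudocount. The pellet table holds 66 ribosomal protein genes, of which 30 were shared, and 45 histone genes, of which 18 were shared. The others had no shared row, so the compared genes of both lists are in part chosen by what the MVH IP table lists. Rps15, the highest of the list in the pellet, had 109 FPKM in the IP and 116 in the pellet, a difference of -1.67 (SE 0.15). Rps27a had 129 and 42.1 FPKM and lay at 0.00 (SE 0.19). Histone genes, 16 in all, had a median of 0.16 with 2 higher (12.5%) and 3 lower (18.8%). The 14 above 0 in both columns had one of 0.26, or 0.80 without the pseudocount. Hist1h1t, the testis linker histone, had 3.96 and 8.49 FPKM (-2.53, SE 0.40). Hist1h2ba, a testis variant of H2B, had 91.8 and 44.6 FPKM (-0.57, SE 0.30). Ribosomal protein and histone genes have near-identical copies elsewhere in the genome, and how the authors placed such reads was not given in the sources used here.

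**Figure D4:**
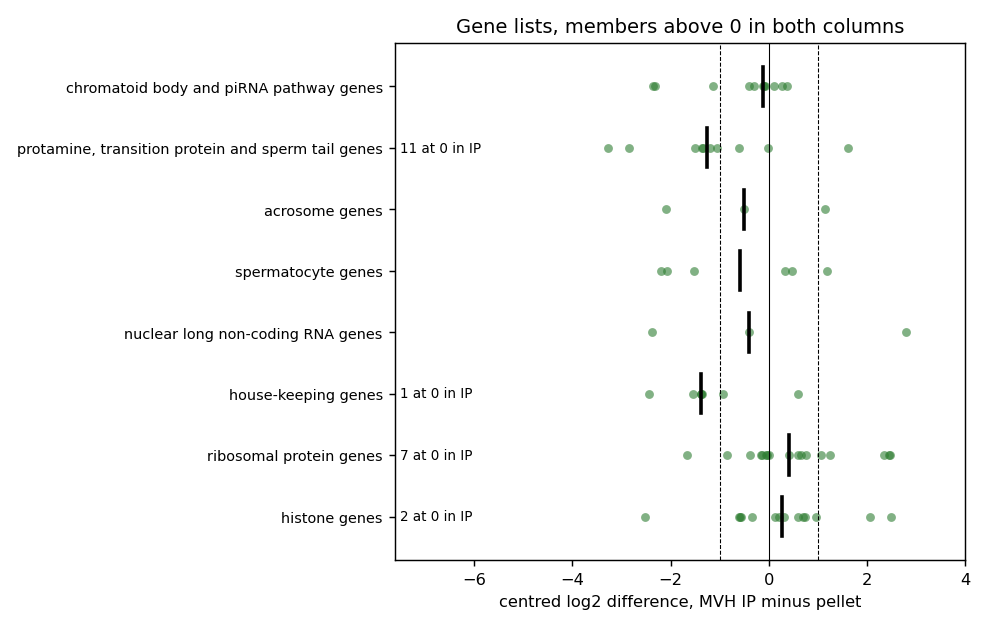
Centred log2 difference, MVH IP minus pellet, for members of 8 gene lists above 0 in both columns; each point is 1 gene, black bars are medians, dashed lines mark 2-fold, and members listed at 0 in the IP are counted at the left edge. The protamine, transition protein and sperm tail list has 11 such members and the house-keeping list 1, and in both most drawn points lie left of -1.

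Many of the higher genes with a small SE of the pellet to lysate ratio were ones that the pellet already held above the lysate. Over all named genes the median pellet to lysate log2 ratio was -2.57, but 51 genes above 0 in the IP with an SE of at most 0.5 stood at least 2-fold above the lysate in the pellet. Those 51 had a median difference of 1.83, with 36 higher (70.6%) and 10 lower (19.6%), and 23 of them lay between 2 and 3. Over all features above 0 in both columns the shares were 16.3% and 13.4%. Of all 465 named genes above 0 in the IP with that SE, 76 were higher and 80 lower. In the 32 genes with a ratio within 2-fold of the lysate the median was 1.74, with 26 higher and 2 lower. In the 382 genes at least 2-fold below the lysate it was -0.24, with 14 higher and 68 lower. This split was chosen after the values were seen. The pellet value enters both measures with opposite sign.

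Kit (chromosome 5, 75971011 to 76052746), the receptor gene of spermatogonia and mast cells, had 444 FPKM in the MVH IP, 18.2 in the pellet and 5.27 in the lysate, 7.71-fold higher than the pellet after centring (difference 2.95, SE 0.20). Smc6, of the SMC5/6 chromosome complex, had 1528 FPKM in the IP, 82.1 in the pellet and 34.4 in the lysate, a difference of 2.61 (SE 0.08). Morc4, of a family of chromatin ATPases, had 835, 37.1 and 8.98 FPKM in the same order (2.86, SE 0.17). Blm, the helicase gene of Bloom syndrome, gave 2.73, and Grn, of progranulin, 2.96.

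The control IP held these genes too. The ACR IP table lists 39 of the 51, and in 38 of them the ACR IP exceeded the lysate column of its own table. Kit had 54.6 FPKM in the ACR IP against 1.65 in that lysate, and Smc6 1154 FPKM against 26.6. Of the 36 higher genes, 30 were listed in the ACR IP table, 29 of these above its lysate. Among the 337 listed genes of the group at least 2-fold below the lysate, the ACR IP exceeded its lysate in 15. Among the 27 listed genes of the group within 2-fold of the lysate it did so in 25, so high ACR IP values were not limited to the 51.

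Another 10 of the 51 genes were lower in the MVH IP than in the pellet. Xpnpep1 (chromosome 19, 53065672 to 53113032), an aminopeptidase gene, had 10.4 FPKM in the IP, 55.5 in the pellet and 3.91 in the lysate, a difference of -3.91 (SE 0.32). Smndc1, of a splicing factor, had 5.90, 27.4 and 3.13 FPKM (-3.63, SE 0.39), and Msto1, of a mitochondrial protein, 63.9, 151 and 7.66 FPKM (-2.82, SE 0.27), with 73.4 FPKM in the ACR IP. Lars2, the mitochondrial leucyl-tRNA synthetase gene, had the highest values of the 51, 4220, 1287 and 604 FPKM, and lay at 0.12 (SE 0.02).

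**Figure D5:**
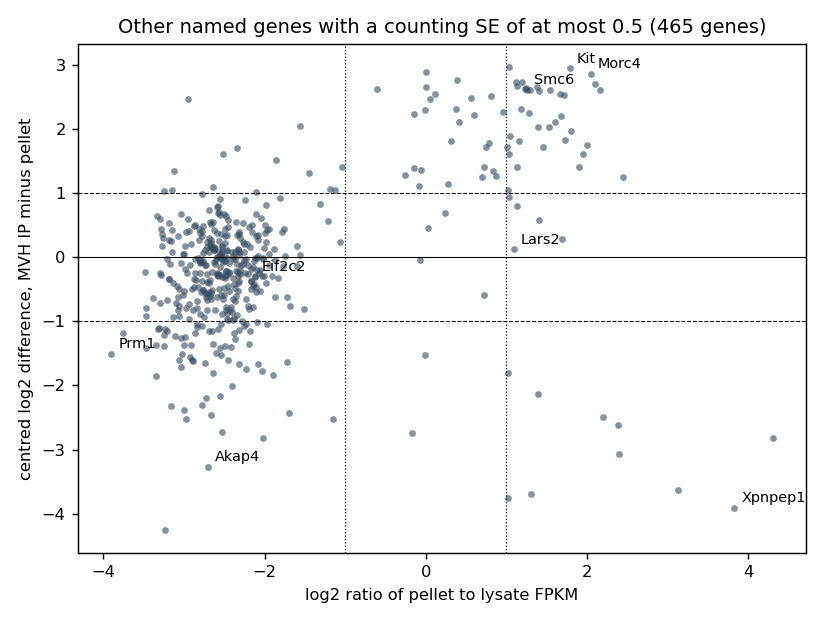
Centred log2 difference, MVH IP minus pellet (vertical), against the log2 ratio of pellet to lysate FPKM (horizontal) for the 465 other named genes above 0 in the IP with an SE of at most 0.5; each point is 1 gene, dotted lines mark 2-fold on the horizontal and dashed lines on the vertical axis. Most genes sit near -2.57 on the horizontal and near 0 on the vertical axis, while of the 51 genes from 1 upward on the horizontal axis 36 lie above the upper dashed line and 10, such as Xpnpep1, below the lower one.

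The locus of 11 named genes overlaps a shared piRNA cluster. Their median was 0.15, with 1 higher and 0 lower, and that of the 1143 overlapping none was -0.24. The one higher gene, Gm10069, named after its value was seen, was listed at 0 in the pellet, and 139 of the 1143 were listed at 0 in the IP. Over genes above 0 in both columns the medians were -0.06 and -0.08, and without the pseudocount -0.05 and 0.37. RIKEN clone and predicted genes, 169 in all, had a median of -0.46 (0.17 without the pseudocount, over 139), with 27 higher and 47 lower. Those were 16.0% and 27.8% of the list, near the 14.4% and 27.8% of all features. Assembled transcripts, built by the authors from reads without annotation, numbered 255, with a median of -2.64. Of these 36 were higher (14.1%) and 145 lower (56.9%), and 128 were listed at 0 in the IP. The 120 above 0 in both columns had a median of 0.03, with 29 higher and 17 lower.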

How the data were processed

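The series holds 8 small RNA libraries (19 to 33 nt), and the columns standing for the 2 MVH IP and the 2 pellet libraries are compared here. Cuffdiff, TopHat and mm9 are named, without roles or versions, per the submitters' processing notes. Values in the authors' deposited tables are FPKM, and the test statistic, a score with no fixed range, is as deposited. The annotation, how the authors joined libraries into 1 column and how multiply mapped reads were placed are not given in the sources used here. No read counts were in these columns, so depth is unknown: 44 of 1382 MVH IP to lysate ratios lay on multiples of a step of 0.659 (ratios of whole numbers up to 6, log tolerance 5e-05), against 2 for a step moved by 1%, but the multiple was ambiguous and reads were not recovered. Of the MVH IP file, 1 column (long RNA) maps to no sample given and was left out.

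Transcripts of 1 symbol and locus were summed in the MVH IP table. A locus is a bundle that can span several genes, and locus and length values are mm9. Features reaching 1 FPKM on either side were compared as log2(FPKM + 1) differences, centred on the piRNA clusters. This scale understates changes of low features. Software was Python 3.11.15 with matplotlib 3.10.9, scipy 1.17.1, pandas 2.3.3 and numpy 2.4.6, and the class summary was tested on simulated data. The members and the 27 lists were chosen with earlier results of these data known. Genes were named by a rule: the 12 highest and 12 lowest differences above 0 in both columns, the 8 highest and lowest of each of 4 classes, the 10 highest levels of each column, 4 members per list with the widest difference, and the 5 highest of features at 0 in 1 column. Genes outside that rule (such as Prm1, Piwil1, Eif2c2, Smc6, Mir741 and others shown with their list or group) were chosen after their values were seen. Alternatives were other pseudocounts, filters, centrings and transcript choices, given in the closing section.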

Additional observations from a re-analysis of the deposited data

How the results depend on the processing

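No paired analysis was possible because each group has 1 deposited column, and no library could be left out for the same reason. Of 181 class-level values, 124 moved by at most 1.5-fold under the alternatives run, as did 1312 of 1549 values of single features. Centring on other named genes, taking the highest transcript and leaving out features that overlap clusters moved no class-level value by more. A pseudocount of 0.1 FPKM gave medians of -12.41 for structured RNA and -5.08 for assembled transcripts, and 302 named genes higher. A pseudocount of 10 FPKM gave -5.79, -1.70 and, for named genes, -1.09, with 129 features higher and 858 lower (named genes 59 and 638), and Acrbp at -0.61 and Hormad2 at -0.77. With no filter the assembled median was -1.59, with 928 features and 584 named genes lower. At 10 FPKM or more in both columns the structured median was -0.63 and the assembled -0.080, with 89 features higher and 33 lower (named genes 32 and 12), 3 structured genes lower, and 4 of 4 gene lists below 0. Over all shared features above 0 in both columns (1546, those under 1 FPKM included), without a pseudocount, structured RNA was at -0.39 with 3 lower, assembled transcripts turned to 0.071, and 398 features were higher and 207 lower (named genes 316 and 172), with 6 of 11 gene lists below 0 against 11 of 12. Features at 0 give no value under these settings. Centred on all features, 9 microRNA genes were lower and 10 of 11 microRNA lists above 0, against 6.

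Without centring, which leaves the scale gap in, medians were 1.89 for microRNA genes, -7.50 for structured RNA, 1.35 for named genes and -1.05 for assembled transcripts. Higher and lower counts were 1134 and 330 over all features, 154 and 4 for microRNA genes and 710 and 159 for named genes, with 5 structured genes higher, 11 microRNA lists above 0 and 3 of 12 gene lists below 0. The house-keeping median turned to 0.21, that of Cajal body, spliceosomal and other structured RNA to 0.39, and 15 features turned sign: piRNA_cluster_14 0.43, piRNA_cluster_163 0.47, piRNA_cluster_154 0.53, piRNA_cluster_190 0.58, Mir743 0.28, Mir883a 0.39, Mir99b 0.097, Mir1983 0.40, Rmrp 0.39, Prm1 0.084, Prm2 0.40, Ldhc 0.23, Pabpc1 0.47, Eef2 0.038 and Clgn 0.070. Loci of at least 200 bp, which drop most microRNA genes, left 17 of them higher and 10 lower, with 2 of 5 lists above 0. Chosen after seeing the data, an SE of at most 0.5 gave structured RNA -4.67 (0 higher, 5 lower), assembled transcripts -0.14, 90 features higher and 131 lower, 12 microRNA genes higher, named genes 76 and 102, and 6 of 7 gene lists below 0. Why values moved was not tested, beyond the fewer features each filter leaves. The median SE of the pellet to lysate ratio was 0.55 over other named genes and 0.04 over clusters, and the MVH IP column has no error.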

Other observations

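The MVH IP table also lists microRNA genes that have no shared row with the pellet table, and they are given here as levels. Mir468 had 883321 FPKM in the MVH IP and Mir22, a microRNA of many tissues, 397585 FPKM. Mir21, widely expressed and raised in many tumours, had 85856 FPKM. Mir206, of skeletal muscle, had 29086 FPKM. Mir469 was listed in both tables at different loci, with 154149 FPKM in the IP and 48997 FPKM in the pellet. Of the 119 pellet microRNA genes at or above 2000 FPKM it was the only one with no shared row. The next highest pellet microRNA genes with no shared row were Mir379, of the imprinted Meg3 to Mirg locus, with 1943 FPKM, Mir466 with 1757 FPKM and Mir182 with 1636 FPKM.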
